A study of Mus musculus with 6 samples.

Results

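A set of 10 heat shock protein genes, chosen by name, was followed in RNA from mouse embryonic stem cells with and without Mpp8 and Tasor. They were Hspa8, Hspa1a, Hspa1b, Hsph1, Dnajb1, Hsp90aa1, Hspb1, Hspa5, Hspd1 and Hspe1, which are 10 of the 57180 genes in the deposited table and were all among the 15714 genes tested. The rows were picked by gene name alone, although the names themselves were put together with earlier results of these data known. The tested cells carried the genotype Mpp8/Tasor dko (dKO, 3 libraries), and the cells they were set against were WT (3 libraries). Both were mouse embryonic stem cells of the C57BL/6 strain, and no treatment, time or passage is given in the labels. Mpp8 (Mphosph8) and Tasor encode subunits of the HUSH complex, which silences integrated and repeated DNA through histone H3 lysine methylation. The labels do not say whether each genotype was 1 clone, nor whether the replicates were separate cultures, so p-values measure the spread between these libraries, which may be technical.

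Heat shock proteins are molecular chaperones, which bind unfolded proteins, help them fold or hold them until they can be degraded. The cytosolic HSP70, HSP110, HSP40 and HSP90 proteins work in relay, whereas Hspa5 serves the endoplasmic reticulum (ER) and Hspd1 with Hspe1 form the mitochondrial folding chamber. Some members are made at all times and others mainly under stress, when the factor HSF1 binds repeated GAA units in their promoters. Embryonic stem cells are known for high basal levels of several chaperones.

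Total estimated counts per library were between 18384774 and 24910498. Mphosph8 had 1, 4 and 3 counts in dKO cells and 2159, 3597 and 2173 counts in WT cells, and fell by 9.82 on the log2 scale (SE 0.247, adjusted p = 4.7e-08, edgeR's quasi-likelihood test). Tasor had 180, 196 and 204 counts in dKO cells and 2631, 4932 and 2567 counts in WT cells, and fell by 4.04 (SE 0.169, adjusted p = 5.62e-07). Both lie on chromosome 14, on which 370 of 525 tested genes (70.5%) were called lower in dKO cells, with a median log2 fold change of -0.94. None of the 10 heat shock protein genes followed here lies on that chromosome. The fall over chromosome 14 and the loss of both subunits come in the same comparison. Their parts in changes of genes elsewhere cannot be told apart. WT replicate 2 stood apart from the other 5 libraries on the second principal component, and the libraries differed by gene length, as described with Hspe1. Of 8 embryonic stem cell markers, 7 did not pass the test and Tdgf1, named here for its value, fell. Their summed level in CPM (counts made comparable between libraries by scaling each to the same total) was 2590 to 2986 in dKO cells and 2413 to 3195 in WT cells. Trophoblast markers summed to 50.2 to 54.1 CPM in dKO cells and 231 to 312 CPM in WT cells (6 of 7 tested fell, and Cdx2 had at most 2 counts in a dKO library and 4 to 16 in a WT library), and primitive endoderm markers to 91.8 to 98.1 CPM in dKO cells and 310.1 to 382 CPM in WT cells (4 of 7 fell, 1 rose). Of those 4, Gata4 and Sox7 lie on chromosome 14, and most of the sum came from Lama1 and Col4a1. The trophoblast sum came mostly from Krt8 (mean 10.3 CPM in dKO cells, 162 CPM in WT cells) and Tfap2c (29.5 and 58.7 CPM). Eomes was the trophoblast marker that did not pass the test (log2 fold change -0.1). Fibroblast and feeder markers summed to 44.3 to 47.4 CPM in dKO cells and 29.8 to 40.6 CPM in WT cells (3 of 7 rose). The part these markers had in the results below was not tested. In such bulk RNA, fewer cells of a type and less RNA per cell cannot be told apart.

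The comparison of dKO with WT cells asked which transcripts differ between the 2 genotypes, which also differ over chromosome 14. Among the heat shock protein genes, Hsph1, Hsp90aa1 and Hspa8, which are cytosolic, fell in dKO cells, to 0.647, 0.689 and 0.828 of the WT level. The stress-inducible Hspa1a and Hspa1b, the J-protein gene Dnajb1, the small heat shock protein gene Hspb1, the ER chaperone gene Hspa5 and the mitochondrial pair Hspd1 and Hspe1 did not pass the test. Thus 3 of 10 (30.0%) were called lower, against 17.9% of all tested genes, and 0 of 10 were called higher, against 16.4%. Calls in either direction covered 34.3% of all tested genes. No member was higher with an unadjusted p under 0.05 in edgeR (0 of 10), and 0 were called higher by DESeq2, which called 4 lower by adding Hspe1. For the same 3 that fell, the dKO and WT libraries did not overlap in CPM, and all 3 were lower in dKO cells. Over all tested genes the libraries of the genotypes did not overlap in CPM for 49.2%, and dKO was the lower one for 25.0%. The median log2 fold change of the 10 was -0.10, against -0.02 over all tested genes, with 7 values below and 3 above 0. Together the 10 genes took up 1.23, 1.20 and 1.18% of all counts in dKO libraries and 1.47, 1.56 and 1.43% in WT libraries, which did not overlap. Most of these counts came from Hspa8 and Hsp90aa1, both called lower, so the sum largely restates those genes.

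**Figure D1:**
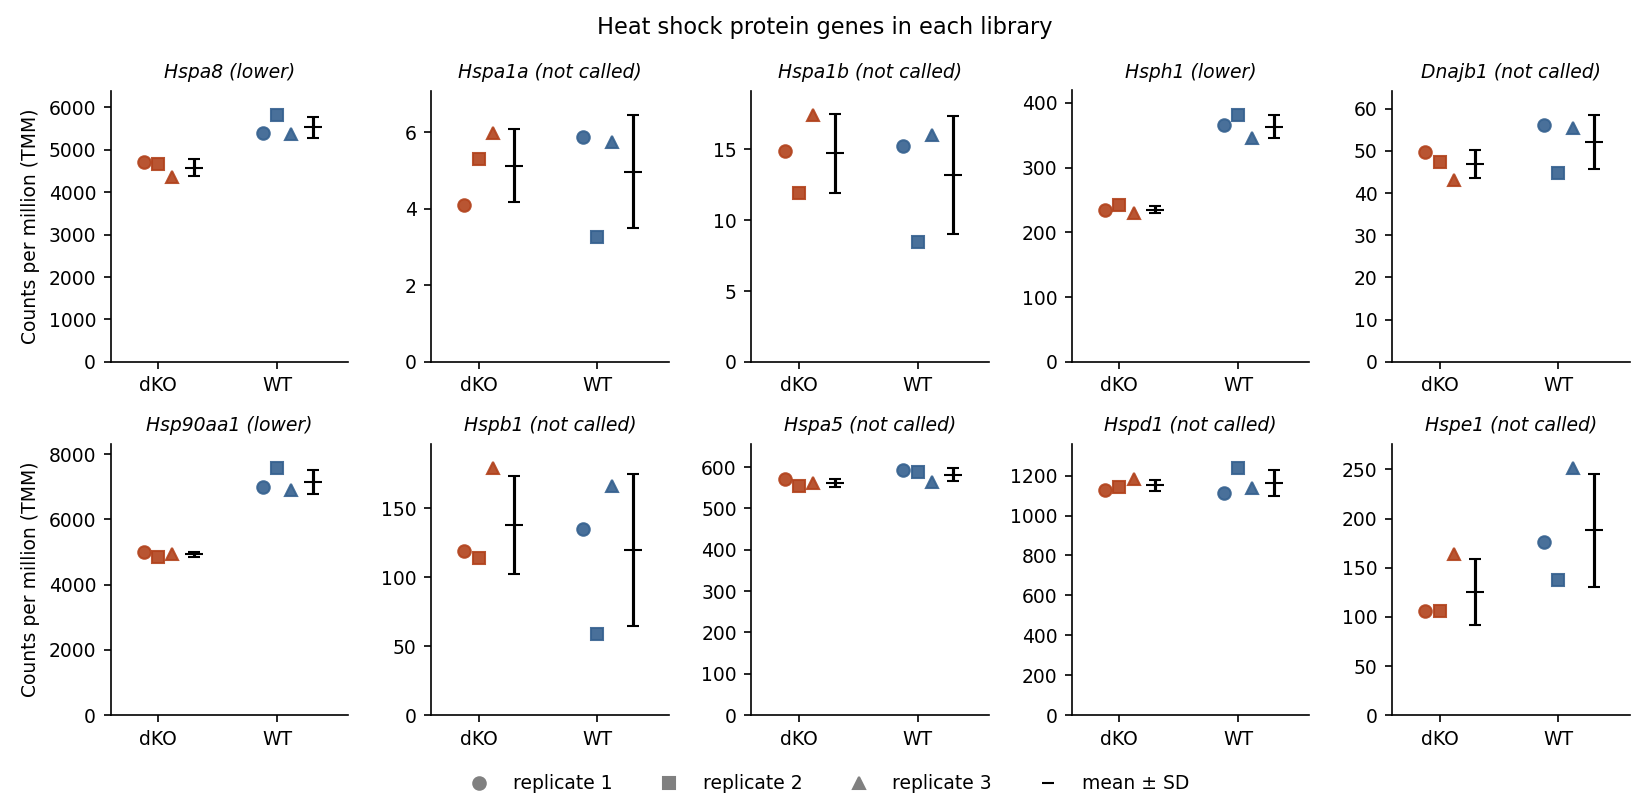
Level in CPM, scaled by the trimmed mean of M values (TMM), of each heat shock protein gene in the 3 dKO libraries (red) and the 3 WT libraries (blue), with the mean and SD as black bars and each axis starting at 0. The libraries of the genotypes separate for Hspa8, Hsph1 and Hsp90aa1, and overlap for the other 7 genes.

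Levels between genes were compared in TPM, the deposited measure of transcript abundance that takes gene length into account. The constitutive HSP70 gene Hspa8 was highest, at 3455 ± 552 TPM in dKO cells and 4315 ± 1441 TPM in WT cells (SD, n = 3 each, as for all values with ±), and ranked 19 among the tested genes. Hsp90aa1 followed at 2999 ± 468 TPM in dKO cells and 4223 ± 1650.3 TPM in WT cells, with rank 22. The ranges of these 2 genes overlapped in both genotypes, so their order was not set by more than the spread. Unlike in CPM, the dKO and WT libraries overlapped in TPM for both genes. Hspa8 ranged from 2832 to 3885 TPM in dKO cells and from 3246 to 5954 TPM in WT cells. Hsp90aa1 ranged from 2461 to 3317 TPM in dKO cells and from 3041 to 6109 TPM in WT cells. For Hsph1 the genotypes stayed apart in TPM (128 to 133 in dKO cells, 147 to 253 in WT cells). Hspd1 averaged 879 ± 57.4 TPM in dKO cells and 851 ± 164 TPM in WT cells. Hspe1 averaged 391 ± 79.1 TPM in dKO cells and 573 ± 134 TPM in WT cells, and its range was apart from that of Hspd1 in dKO cells but overlapped with it in WT cells. Hspa5 was at 319.5 ± 42.5 TPM in dKO cells and 337 ± 114 TPM in WT cells. Hspb1 was at 339 ± 61.1 TPM in dKO cells and 285 ± 113 TPM in WT cells. Hspe1 and Hspa5 overlapped in both genotypes, as did Hspa5 and Hspb1, so the middle of the order was not resolved. Hsph1 had 129 ± 2.95 TPM in dKO cells and 192 ± 55.1 TPM in WT cells, and overlapped with Hspb1 in WT cells. Dnajb1 was at 26.6 ± 4.38 TPM in dKO cells and 28.0 ± 2.34 TPM in WT cells. The stress-inducible genes came last, Hspa1b at 8.84 ± 0.934 TPM in dKO cells and 7.49 ± 1.54 TPM in WT cells, and Hspa1a at 2.91 ± 0.418 TPM in dKO cells and 2.65 ± 0.54 TPM in WT cells. Dnajb1, Hspa1b and Hspa1a did not overlap with their neighbours in the order in either genotype.

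Hsph1 (ENSMUSG00000029657, chromosome 5) encodes HSP110, which exchanges the nucleotide of HSP70 and, with HSP70 and a J-protein, takes protein aggregates apart. It had 234, 242 and 230.5 CPM in dKO cells and 365, 380.5 and 345 CPM in WT cells. All 3 dKO libraries lay below all 3 WT libraries, and the spread within each genotype was small beside the gap. The mean was 235 ± 5.68 CPM in dKO cells and 363 ± 17.8 CPM in WT cells, a log2 fold change of -0.63 (SE 0.0799, 95% interval -0.81 to -0.45, adjusted p = 0.000381, edgeR). It was called lower under all 13 alternative settings, with log2 fold changes of -0.67 to -0.57 and adjusted p of 1.02e-08 to 0.00599. In the authors' deposited table its log2 fold change was -0.62 with an adjusted p of 9.52e-09. The promoter of Hsph1 is shown because its log2 fold change was the largest in size of the 10, and it holds 1 pair of heat shock units (TTCNNGAA or GAANNTTC, searched on both strands), in capitals. The window is the 250 bases before the RefSeq transcript start in GRCm38.p6, chr5:149636337-149636586, minus strand, and the pair begins 33 bases before the start. A second annotated start of Hsph1 puts the same pair 54 bases before it.
Hsph1: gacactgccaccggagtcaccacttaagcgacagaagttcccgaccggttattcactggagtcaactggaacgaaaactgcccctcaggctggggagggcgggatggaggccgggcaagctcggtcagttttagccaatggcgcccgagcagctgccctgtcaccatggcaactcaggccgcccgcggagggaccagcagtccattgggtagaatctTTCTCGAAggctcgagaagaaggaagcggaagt

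A set of 5 genes had the pattern over the 6 libraries closest to that of Hsph1, by mean absolute difference of centred log2 CPM. They were Abhd4 (0.03, on chromosome 14), Ndrg1 (0.0307), Cnot10 (0.0311), Ptpn3 (0.0337) and Arih2 (0.0339). Because the genes were picked on these same values, their changes largely follow from the choice. Their log2 fold changes were -0.67, -0.63, -0.65, -0.70 and -0.58 in that order, and all were called lower in edgeR.

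Hsp90aa1 (ENSMUSG00000021270, chromosome 12) encodes the stress-responsive cytosolic HSP90 alpha, which matures kinases and steroid receptors. It had 4991, 4848 and 4939.5 CPM in dKO cells and 6985, 7563 and 6909 CPM in WT cells. The genotypes did not overlap. The mean was 4926 ± 72.5 CPM in dKO cells and 7152 ± 358 CPM in WT cells, a log2 fold change of -0.54 (SE 0.0858, 95% interval -0.73 to -0.34, adjusted p = 0.00137, edgeR), called lower under all 13 alternatives (adjusted p 2.54e-07 to 0.015). The authors' deposited table gives a log2 fold change of -0.53 and an adjusted p of 2.39e-07. Of its 75-base stretches, 42.8% also occur in other genes of the same strand, led by the copy Gm12346, which had 0, 3 and 8 counts in dKO cells and 7, 7 and 5 counts in WT cells. Its constitutive paralog Hsp90ab1 (HSP90 beta), which is no member, had 6247, 6183 and 6278 CPM in dKO cells and 6625, 5797 and 6558 CPM in WT cells. Hsp90ab1 did not pass the test (log2 fold change -0.02, SE 0.0905, adjusted p = 0.883, edgeR). The TPM of Hsp90aa1 over that of Hsp90ab1, a ratio chosen after the values were seen, was 0.736, 0.699 and 0.64 in dKO cells and 0.806, 1.35 and 0.819 in WT cells. The ratio was lower in every dKO library than in every WT library. The log2 ratio averaged -0.53 ± 0.1 in dKO cells and -0.05 ± 0.43 in WT cells, a difference of -0.48 (exact two-sided permutation p = 0.1, the smallest that 3 against 3 libraries can give). Without WT replicate 2, which had the highest ratio, the difference was -0.24. In counts in place of TPM, an alternative chosen after seeing the data, the ratio was 0.799, 0.784 and 0.787 in dKO cells and 1.05, 1.30 and 1.05 in WT cells, a log2 difference of -0.52.

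Hspa8 (ENSMUSG00000015656, chromosome 9) encodes HSC70, the HSP70 of unstressed cells, which also strips clathrin from vesicles. It had 4722, 4659.7 and 4348 CPM in dKO cells and 5389, 5815 and 5378 CPM in WT cells. The genotypes did not overlap, but the gap was narrower than for Hsp90aa1. The mean was 4577 ± 200.2 CPM in dKO cells and 5527 ± 249 CPM in WT cells, a log2 fold change of -0.27 (SE 0.0874, 95% interval -0.47 to -0.08, adjusted p = 0.0383, edgeR). This call held in 6 of 13 alternatives. Among those 6 were the sum of Hspa1a and Hspa1b, which leaves the counts of Hspa8 as they were, and a block by replicate number. The replicate numbers were not taken to pair the samples. It was lost with DESeq2's size factors (adjusted p = 0.0513), with library totals (0.111), without dKO replicate 1 (0.133), 2 (0.131) or 3 (0.157), and without WT replicate 1 (0.0802) or 3 (0.0582), in edgeR throughout, with a range over the alternatives of 0.00997 to 0.157. The authors' deposited table gives a log2 fold change of -0.26 and an adjusted p of 0.0309. Of the 75-base stretches of Hspa8, 32.8% also occur in other genes of the same strand, so part of its estimated count rests on how reads were shared out.

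Hspa1a (ENSMUSG00000091971) and Hspa1b (ENSMUSG00000090877) are neighbours on chromosome 17 that encode the stress-inducible HSP70. Hspa1a had 85, 103 and 114 counts in dKO cells and 107, 80 and 105 counts in WT cells. Hspa1b had 308, 230 and 331 counts in dKO cells and 277, 207 and 292 counts in WT cells. The genotypes overlapped for both genes, and WT replicate 2 was lowest in both. Hspa1a averaged 5.13 ± 0.952 CPM in dKO cells and 4.97 ± 1.48 CPM in WT cells (log2 fold change 0.06, 95% interval -0.52 to 0.64, adjusted p = 0.889, edgeR). Hspa1b averaged 14.7 ± 2.76 CPM in dKO cells and 13.2 ± 4.17 CPM in WT cells (log2 fold change 0.16, 95% interval -0.39 to 0.71, adjusted p = 0.655, edgeR). Neither sign held throughout, since without WT replicate 2 the log2 fold change was -0.18 for Hspa1a and -0.09 for Hspa1b, and without dKO replicate 3 it was -0.06 for Hspa1a. Of the 75-base stretches of Hspa1b, 55.8% also occur in Hspa1a, so the split between them is uncertain. Their summed counts were 393, 333 and 445 in dKO cells and 384, 287 and 397 in WT cells (log2 fold change 0.13, SE 0.231, adjusted p = 0.702, edgeR). The Hspa1b promoter is shown because this gene is a classic target of HSF1 and did not pass the test. Its pair of heat shock units, in capitals, begins 104 bases before the RefSeq start (GRCm38.p6, chr17:34959239-34959488, minus strand). The Hspa1a window differs from it at 3 bases and holds the pair at the same place.
Hspa1b: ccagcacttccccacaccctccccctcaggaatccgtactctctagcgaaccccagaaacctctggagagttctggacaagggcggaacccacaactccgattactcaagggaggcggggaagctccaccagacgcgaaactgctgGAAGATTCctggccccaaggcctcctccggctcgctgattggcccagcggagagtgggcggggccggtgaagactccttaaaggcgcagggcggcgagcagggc

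Dnajb1 (ENSMUSG00000005483, chromosome 8) encodes an HSP40, a J-protein that delivers clients to HSP70 and stimulates its ATPase. It had 49.8, 47.4 and 43.2 CPM in dKO cells and 56.1, 44.7 and 55.3 CPM in WT cells. WT replicate 2 lay among the dKO libraries, and the genotypes overlapped. The mean was 46.8 ± 3.31 CPM in dKO cells and 52.1 ± 6.35 CPM in WT cells (log2 fold change -0.15, SE 0.119, 95% interval -0.42 to 0.12, adjusted p = 0.357, edgeR). Without WT replicate 2 it was called lower (log2 fold change -0.25, adjusted p = 0.0425, edgeR). No pair of heat shock units was found in the 250 bases before either of its annotated starts. The second of these windows (chr8:83608298-83608547, plus strand) lies past the first start.

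Hspb1 (ENSMUSG00000004951, chromosome 5) encodes a small heat shock protein, HSP25 in mice, which holds unfolding proteins without using ATP. It had 119, 114 and 179 CPM in dKO cells and 135, 59.1 and 166 CPM in WT cells. Both genotypes spread widely and overlapped, with the third replicate high in each and WT replicate 2 the lowest. The mean was 138 ± 35.8 CPM in dKO cells and 120.1 ± 55.1 CPM in WT cells (log2 fold change 0.20, SE 0.392, 95% interval -0.76 to 1.15, adjusted p = 0.74, edgeR). Without WT replicate 2 the log2 fold change was -0.13, and without dKO replicate 3 it was -0.02. Of its 75-base stretches, 46.4% also occur in the copy Hsp25-ps1, which had 0 counts.

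Hspa5 (ENSMUSG00000026864, chromosome 2) encodes BiP, the HSP70 of the ER and a standard readout of the unfolded protein response. It had 572, 553 and 561 CPM in dKO cells and 593, 587 and 563 CPM in WT cells. The ranges met at their edges. The mean was 562 ± 9.37 CPM in dKO cells and 581 ± 15.7 CPM in WT cells (log2 fold change -0.05, SE 0.0773, 95% interval -0.22 to 0.12, adjusted p = 0.662, edgeR), or 0.01 with library totals as the scaling. Its promoter is shown because it was the only one of the 8 genes with a RefSeq window to hold an ER stress response element (CCAAT, 9 bases of any kind, then CCACG, searched on both strands), here in capitals. The element begins 65 bases before the start (GRCm38.p6, chr2:34771840-34772089, plus strand).
Hspa5: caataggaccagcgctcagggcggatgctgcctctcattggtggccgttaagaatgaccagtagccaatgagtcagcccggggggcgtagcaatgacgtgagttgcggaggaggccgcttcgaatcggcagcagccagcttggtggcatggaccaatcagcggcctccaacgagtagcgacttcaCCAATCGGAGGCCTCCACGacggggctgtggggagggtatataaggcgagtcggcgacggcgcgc

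Hspd1 (ENSMUSG00000025980) and Hspe1 (ENSMUSG00000073676) encode the mitochondrial chaperonin HSP60 and its lid HSP10, and lie head to head on chromosome 1. Hspd1 had 1128, 1141 and 1184 CPM in dKO cells and 1112, 1236 and 1136 CPM in WT cells, with the genotypes overlapping. Its mean was 1151 ± 29.2 CPM in dKO cells and 1161 ± 65.6 CPM in WT cells (log2 fold change -0.01, SE 0.0838, 95% interval -0.20 to 0.18, adjusted p = 0.922, edgeR), or 0.05 with library totals and 0.03 without WT replicate 2. Hspe1 had 106, 106 and 164 CPM in dKO cells and 176, 137 and 251 CPM in WT cells. WT replicate 2 lay below dKO replicate 3, so the genotypes overlapped, and the third replicate was highest in each. The Hspe1 mean was 125 ± 33.6 CPM in dKO cells and 188 ± 57.6 CPM in WT cells (log2 fold change -0.58, SE 0.253, 95% interval -1.18 to 0.01, adjusted p = 0.117, edgeR). Whether the log2 fold changes of the pair differ was not tested. The authors' deposited table gives Hspe1 a log2 fold change of -0.57 and an adjusted p of 0.0351. The stretch before the Hspe1 start is shown because Hspd1 is also transcribed from it, from 1 of its annotated starts, and it holds a run of adjoining heat shock units. A second annotated start of Hspd1 lies past the Hspe1 start. Its window (chr1:55088244-55088493, minus strand) holds no pair of heat shock units. A triplet (the pair above extended by NN and 1 more TTC or GAA in alternation, searched on both strands) matched at 2 overlapping places, beginning 89 and 84 bases before the Hspe1 start (GRCm38.p6, chr1:55087898-55088147, plus strand). The capitals mark all bases of those matches.
Hspe1: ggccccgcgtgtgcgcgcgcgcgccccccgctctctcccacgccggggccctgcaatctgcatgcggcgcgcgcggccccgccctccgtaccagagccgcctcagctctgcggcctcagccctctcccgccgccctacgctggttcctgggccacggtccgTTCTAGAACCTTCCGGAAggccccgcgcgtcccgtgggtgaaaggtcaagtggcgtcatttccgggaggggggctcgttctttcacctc

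Hspe1 and Hspb1, at 774 and 903 bases, are the 2 members shorter than 1000 bases. Over the 1316 tested genes under 1000 bases, the median log2 deviation from the mean of the libraries was -0.03, -0.11 and 0.24 in dKO replicates 1, 2 and 3, and -0.02, -0.27 and 0.28 in WT replicates 1, 2 and 3. For the 1620 genes over 6000 bases it was 0.00, 0.05 and -0.06 in dKO replicates and -0.01, 0.12 and -0.08 in WT replicates. Short genes were therefore high in the third replicate of each genotype and low in WT replicate 2. Within each genotype Hspe1 and Hspb1 were likewise highest in the third replicate, and within WT they were lowest in replicate 2. With this trend fitted as an offset, an alternative chosen after seeing the data, Hspe1 was called lower (log2 fold change -0.58, adjusted p = 0.00705, edgeR). Hspe1 was also called lower by DESeq2 (-0.57, adjusted p = 0.0358) and without dKO replicate 3 (-0.81, adjusted p = 0.0312, edgeR). Its adjusted p over all alternatives was between 0.000222 and 0.351. The cause of the trend was not tested.

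**Figure D2:**
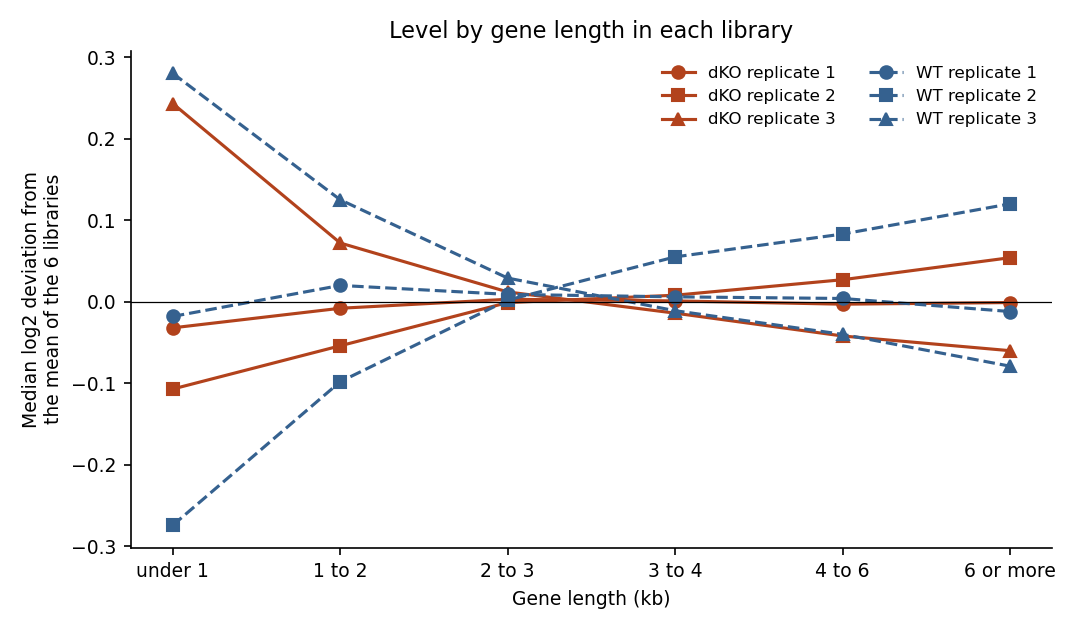
Median log2 deviation from the mean of the 6 libraries (vertical axis) of tested genes binned by length in kilobases (horizontal axis), with 1 line per library, dKO in solid red and WT in dashed blue. For genes under 1 kilobase, WT replicate 3 (0.28) and dKO replicate 3 (0.24) were highest and WT replicate 2 (-0.27) was lowest.

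**Figure D3:**
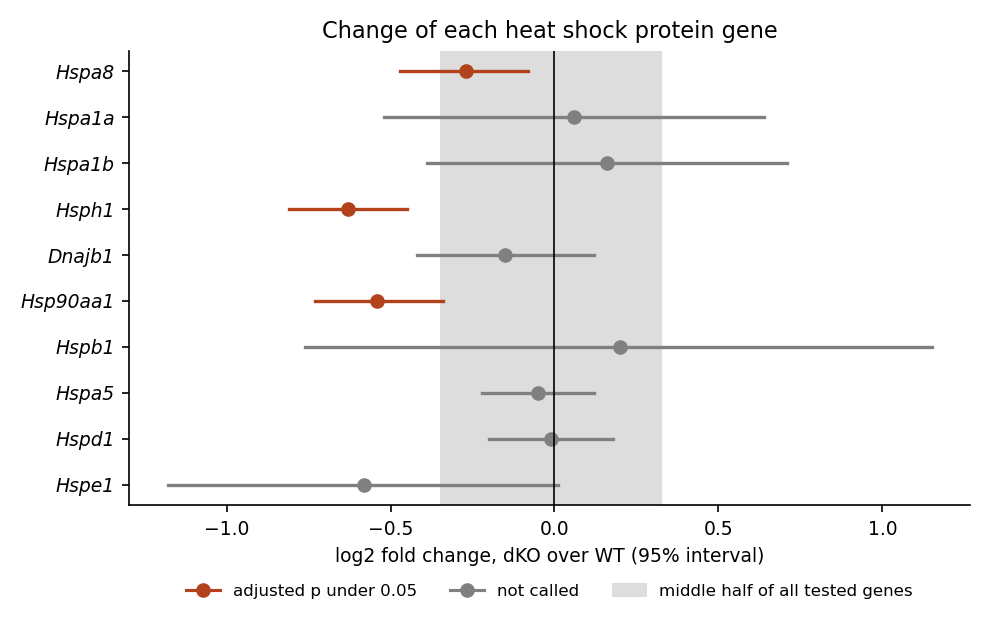
Log2 fold change of dKO over WT with its 95% interval (edgeR) for each heat shock protein gene, in red where the adjusted p was under 0.05, with the middle of the distribution of all tested genes shaded. The points of Hsph1 (-0.63), Hspe1 (-0.58, not called) and Hsp90aa1 (-0.54) lie outside the shaded band. Hspa8 (-0.27) lies inside it, and the interval of Hspb1 (-0.76 to 1.15) is the widest.

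Pairs of heat shock units occur in 12.8% of all 32851 RefSeq promoter windows, triplets in 0.466% and the ER stress response element in 0.113%. Of the 8 members with a window, 6 held a pair in at least 1 window, 2 (Hspd1 and Hspe1, from their shared stretch) held a triplet and 1 held the ER element. Hsph1, which fell, and Hspa1a, Hspa1b and Hspb1, which did not pass the test, all held a pair. A match describes letters in the window and shows no binding. Hspa8 and Hsp90aa1 had no window in the promoter table used.

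The other chaperone and stress genes were grouped in 10 lists with 111 genes, of which 102 were tested. In all, 12 rose, 21 fell and 69 did not pass the test, with a median log2 fold change of -0.00. Over all tested genes 16.4% were called higher and 17.9% lower. Scaling by library totals turned the balance round, with 20 higher and 14 lower. The counts also depended on single libraries, with 6 higher and 11 lower without dKO replicate 1, 7 and 12 without dKO replicate 2, 7 and 11 without dKO replicate 3, and 10 and 13 without WT replicate 1. Of the 4 tested heat shock factors and regulators, 1 rose, with a list median of 0.18. Hsf1, the main heat shock factor, was at 44.1 ± 0.934 CPM in dKO cells and 36.0 ± 0.744 CPM in WT cells (log2 fold change 0.29, SE 0.092, adjusted p = 0.0355, edgeR). That call was lost without any 1 of the dKO replicates (adjusted p 0.0761 to 0.151), without WT replicate 1 (0.0721) or 3 (0.0698), and with no low-count filter (0.094). Hsf2, which works in development, was at 72.8 ± 1.07 CPM in dKO cells and 69.5 ± 12 CPM in WT cells and did not pass the test (0.07, adjusted p = 0.725, edgeR; -0.06 without WT replicate 3).

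The other HSP70 and HSP110 genes split, with 2 of 10 higher, 3 lower and a median of -0.13. Hspa4, an HSP110 relative of Hsph1, fell to 974 ± 31.9 CPM in dKO cells, against 1362 ± 141 CPM in WT cells (log2 fold change -0.48, SE 0.0968, adjusted p = 0.0044, edgeR). Hspa4l, the third cytosolic HSP110, averaged 6.25 ± 0.492 CPM in dKO cells and 9.27 ± 1.74 CPM in WT cells (-0.57, adjusted p = 0.0333, edgeR). The Hspa4l call was lost without any 1 of the dKO replicates or WT replicate 3 (adjusted p 0.0661 to 0.111). Hspa14, a ribosome-bound HSP70 relative that shares its locus with an overlapping gene, was at 84.4 ± 2.48 CPM in dKO cells and 122 ± 6.82 CPM in WT cells (-0.53, adjusted p = 0.00136, edgeR). In the other direction, Hyou1, the HSP110 relative of the ER, was at 375 ± 1.71 CPM in dKO cells and 267 ± 26.1 CPM in WT cells (0.49, adjusted p = 0.0032, edgeR). Hspa2, an HSP70 best known from the testis, was at 10 ± 0.854 CPM in dKO cells and 6.21 ± 0.959 CPM in WT cells (0.70, adjusted p = 0.00995, edgeR; 0.0511 without dKO replicate 1).

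Of 14 tested J-protein genes of classes A and B besides Dnajb1, 5 rose and 1 fell, with a median of 0.11, and 2 were called higher without any 1 of the dKO replicates or WT replicate 3, and 3 with no low-count filter. Dnajb13, an axonemal J-protein that overlaps Ucp2 on the opposite strand, was at 4.56 ± 0.931 CPM in dKO cells and 2.02 ± 0.268 CPM in WT cells (log2 fold change 1.17, adjusted p = 0.00418, edgeR). Dnajb5, a close relative of Dnajb1, was at 23.2 ± 1.22 CPM in dKO cells and 15.0 ± 2.31 CPM in WT cells (0.63, adjusted p = 0.00678, edgeR). Dnajb12, an ER membrane J-protein, was at 45.1 ± 0.796 CPM in dKO cells and 35.2 ± 2.97 CPM in WT cells (0.36, adjusted p = 0.0238, edgeR), a call lost without any 1 of the dKO replicates or WT replicate 3 (0.0586 to 0.0833). Dnaja4 fell to 2.25 ± 0.588 CPM in dKO cells, against 4.49 ± 0.403 CPM in WT cells (-1.0, adjusted p = 0.0107, edgeR). Of 12 exchange factors and adaptors of HSP70, 2 rose and 10 did not pass the test, with a median of 0.13. Sil1, the exchange factor of BiP, was at 26.4 ± 0.565 CPM in dKO cells and 15.7 ± 1.37 CPM in WT cells (0.75, adjusted p = 0.000952, edgeR). Grpel2, its mitochondrial counterpart, was at 66.0 ± 2.39 CPM in dKO cells and 53.6 ± 2.61 CPM in WT cells (0.30, adjusted p = 0.0326, edgeR), a call lost without any 1 of the dKO replicates or WT replicate 3 (0.0581 to 0.145) and with no low-count filter (0.0623).

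Among 17 other HSP90 proteins and co-chaperones, 6 fell and 11 did not pass the test, with a median of -0.06. The number lower was 3 without any 1 library other than WT replicate 2. Chordc1, an HSP90 co-chaperone, was at 52.1 ± 2.75 CPM in dKO cells and 80.7 ± 6.69 CPM in WT cells (log2 fold change -0.63, adjusted p = 0.00134, edgeR). Ppid, the cyclophilin of HSP90 complexes, was at 142 ± 3.46 CPM in dKO cells and 209 ± 15 CPM in WT cells (-0.56, adjusted p = 0.00108, edgeR). Fkbp4, an immunophilin of the steroid receptor complex, averaged 647 ± 54.7 CPM in dKO cells and 892 ± 177 CPM in WT cells (-0.46, adjusted p = 0.0342, edgeR). The Fkbp4 groups overlapped, and its call was lost without any 1 of the dKO replicates or WT replicate 1 or 3 (0.055 to 0.125). Sugt1, a co-chaperone gene on chromosome 14, was at 41.8 ± 1.36 CPM in dKO cells and 138 ± 6.53 CPM in WT cells (-1.72, adjusted p = 1.92e-06, edgeR). The cytosolic chaperonin genes, whose products fold actin and tubulin, had 3 of 8 lower and 5 that did not pass the test. All 8 log2 fold changes were below 0 (median -0.21), and all 8 stayed below 0 under each of the 13 alternatives. The number lower was 7 without WT replicate 2 and 1 without any other single library, 1 with library totals, 1 with no low-count filter and 5 with the length offset. Cct6a was at 683 ± 35.2 CPM in dKO cells and 943 ± 22.7 CPM in WT cells (-0.46, adjusted p = 0.00235, edgeR). The calls of Cct3 (-0.26, adjusted p = 0.0324, edgeR) and Cct4 (-0.25, adjusted p = 0.0391, edgeR) were lost with library totals (0.091 and 0.111), with no low-count filter (0.0534 and 0.0642), and without any 1 of the dKO replicates or WT replicate 1 or 3 (0.0546 to 0.191).

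**Figure D4:**
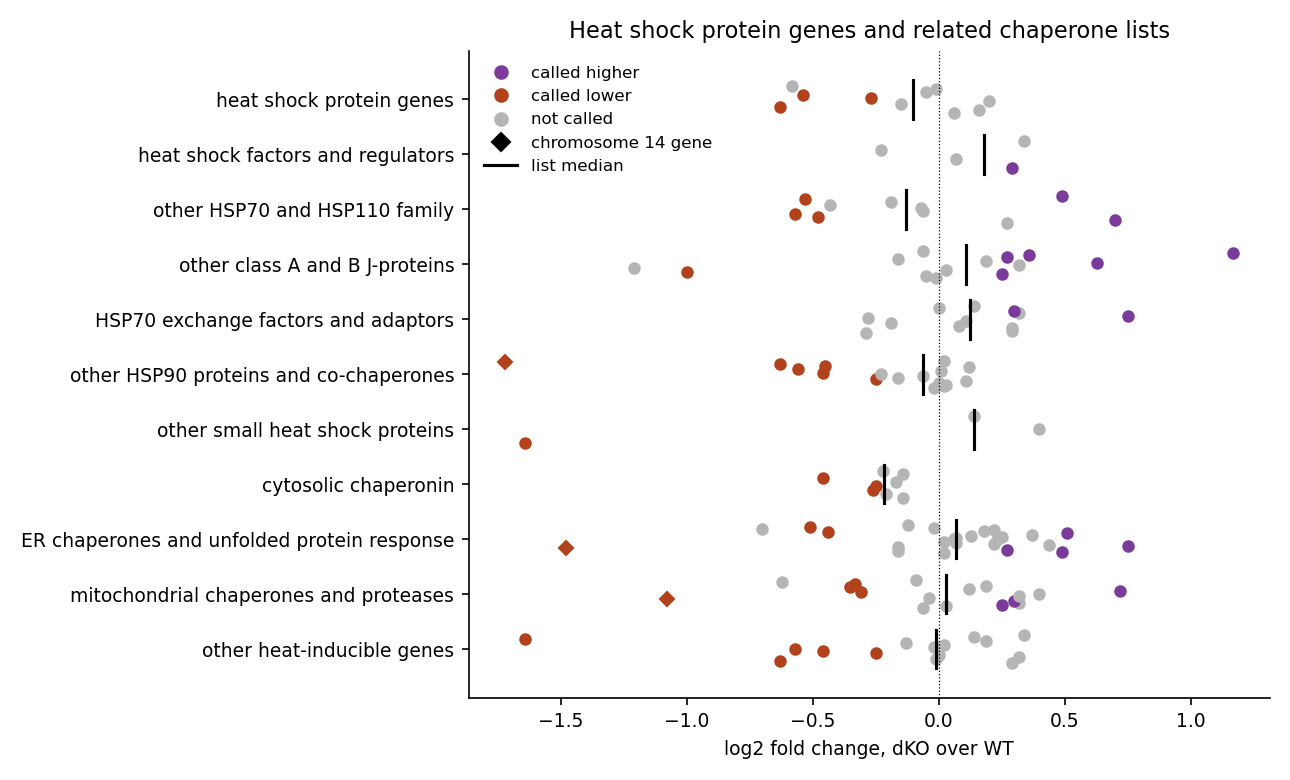
Log2 fold change of dKO over WT (horizontal axis) for each tested gene of the heat shock protein genes and of 10 related lists (rows), with called genes in colour, diamonds for genes on chromosome 14 and a bar at each list's median. Of the 17 other HSP90 proteins and co-chaperones 6 are called lower, and the highest median is that of the heat shock factors and regulators (0.18).

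For the ER, 4 of 25 chaperone and unfolded protein response genes rose and 3 fell, with a median of 0.07. The number higher was 9 with library totals and 8 with the length offset, and 1 was called lower without dKO replicate 1, 2 without dKO replicate 3 or WT replicate 1. Besides Hyou1 and Sil1, Xbp1, the factor spliced in the unfolded protein response, was at 88.1 ± 1.41 CPM in dKO cells and 61.8 ± 2.22 CPM in WT cells (log2 fold change 0.51, adjusted p = 0.00171, edgeR). Dnajc3, an ER J-protein gene on chromosome 14, was at 20.1 ± 0.977 CPM in dKO cells and 56.2 ± 7.37 CPM in WT cells (-1.48, adjusted p = 2.75e-05, edgeR). Among 17 mitochondrial chaperones and proteases, 3 rose and 4 fell, with a median of 0.03, while 1 and 1 were called without any 1 of the dKO replicates, 2 and 2 without WT replicate 1, 3 and 2 without WT replicate 3, and 5 and 5 without WT replicate 2. With library totals the balance turned, to 6 higher and 1 lower, and the DESeq2 test called 5 higher and 2 lower. Clpb, which pulls apart protein aggregates in mitochondria, was at 118 ± 9.01 CPM in dKO cells and 71.5 ± 11.3 CPM in WT cells (0.72, adjusted p = 0.00229, edgeR). Dnaja3, a mitochondrial J-protein, was at 171 ± 1.15 CPM in dKO cells and 144 ± 2.68 CPM in WT cells (0.25, adjusted p = 0.0311, edgeR), a call lost without any 1 of the dKO replicates or WT replicate 1 or 3 (0.0606 to 0.136) and with no low-count filter (0.0815). Dnajc15, of the mitochondrial import machinery and on chromosome 14, was at 6.83 ± 1.89 CPM in dKO cells and 14.4 ± 2.81 CPM in WT cells (-1.08, adjusted p = 0.0048, edgeR). Of the 3 other small heat shock protein genes tested, 1 fell. It was Cryab, alpha-B crystallin, at 1.17 ± 0.0996 CPM in dKO cells and 3.67 ± 1.2 CPM in WT cells (-1.64, adjusted p = 0.00347, edgeR). Of 15 other heat-inducible genes, 5 fell (2 or 3 without any 1 library other than WT replicate 2) and 10 did not pass the test, with a median of -0.01. Genes of this list that were named above are counted in their own lists too. The ER and mitochondrial lists also share genes with the lists before them, so the counts per list overlap. Of the genes that rose, Hyou1, Dnajb11 and Sil1 (ER) and Dnaja3 and Grpel2 (mitochondria) were counted before. Totals over all lists count each gene once.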

How the data were processed

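RNA was measured in 3 dKO and 3 WT libraries, made per the labels' protocols from Trizol-extracted total RNA with an Illumina TruSeq kit. The strand setting of the counting is not stated in what was used here. Tools listed in the submitters' processing notes are HISAT2 2.1.0, FastQC, DESeq 1.26.0 and RSEM, and the build is GRCm39. The authors deposited 1 table of 57180 genes. Per the file headers it holds expected counts, in which 24.6% of values above 0 were not exactly whole, with TPM, gene length and the authors' fold (ratio), log2 fold change, p-value and adjusted p-value. The authors' comparison is quoted only as their deposited table.

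Expected counts were rounded to whole numbers and tested in R 4.3.3 with edgeR 4.0.16 (quasi-likelihood, TMM, genotype only). filterByExpr kept 15714 genes, and a gene was called where its p, adjusted by Benjamini-Hochberg over all of them, was under 0.05. CPM are TMM-scaled, with mean ± SD over 3 libraries. A count of 0 allows up to 3 counts, or 0.12 to 0.163 CPM, for counting error only. Alternatives were DESeq2 1.42.0, its size factors, library totals, no filter, Hspa1a and Hspa1b summed, a replicate block, a length offset and each library left out. The sum of Hspa1a and Hspa1b leaves the counts of all other genes as they were, so for those genes it is hardly a check.

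Named genes were the 10 members, the targeted genes, Hsf1 and Hsf2, up to 4 called genes per related list by smallest p, and the 5 genes nearest to Hsph1. Members and lists were chosen with earlier results of these data known. Chromosomes and 75-base stretches came from GENCODE M21 and promoters from RefSeq GRCm38.p6, matched by symbol (8 of 10 members), and no coordinates were converted from GRCm39.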

Additional observations from a re-analysis of the deposited data

How the results depend on the processing

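Hsph1 and Hsp90aa1 kept their direction and their call under all 13 alternatives run, and 0 of the 10 genes was called higher under any of them. With single libraries left out, calls over all genes ranged from 3588 to 6833 and those lower from 1845 to 3469, related-list calls from 6 to 16 higher and 11 to 31 lower, and log2 fold changes from -0.18 to 0.21 for Hspa1a, -0.09 to 0.31 for Hspa1b, -0.25 to -0.09 for Dnajb1, -0.13 to 0.49 for Hspb1, -0.30 to -0.22 for Hspa8, -0.04 to 0.03 for Hspd1, -0.81 to -0.33 for Hspe1 and -0.06 to 0.20 for Hsf2. The difference in log2 ratio of Hsp90aa1 to Hsp90ab1 ranged from -0.61 to -0.24. Hspa8 was not called with DESeq2's size factors (-0.26) or library totals (-0.21), and library totals gave 0.01 for Hspa5, 0.05 for Hspd1 and 20 related genes higher and 14 lower. They also moved the median of all genes to 0.05. Hspe1 was called lower with the DESeq2 test (-0.57) and the length offset (-0.58). The length offset and the ratio's alternatives were chosen after seeing the data. Deviations of same-numbered libraries from their genotype means correlated at -0.08, 0.27 and 0.33 for numbers 1, 2 and 3, so the numbers were not taken to pair the samples. A fit with replicate number as a block called 6794 genes, against 5392, with 4 members lower, 19 related genes higher (8 of the ER list, 6 of the mitochondrial list), 5 chaperonin genes lower and Hspe1 at -0.57 (adjusted p = 0.000222, edgeR). It does not hold that every library correlated best with its own number, since dKO replicate 1 did so with WT replicate 2 (0.21). The causes of these shifts were not tested. Hspa1a had the fewest counts of the 10 genes, at 80 to 114 per library.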

Other observations

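Gm15459, a processed pseudogene copy of Hspa8 that was chosen after its values were seen, ran opposite to its parent. It had 82, 71 and 38 counts in dKO cells and 20, 11 and 4 counts in WT cells, so every dKO library exceeded every WT library. The mean was 3.21 ± 1.06 CPM in dKO cells and 0.589 ± 0.457 CPM in WT cells (SD, n = 3 each), a log2 fold change of 2.45 (SE 0.495, adjusted p = 0.00466, edgeR). Of the 75-base stretches of Hspa8, 30.2% also occur in Gm15459, so reads shared between them were divided by a model, and the part of that division in the Gm15459 value was not tested. The counts of Gm15459 are small beside those of Hspa8, which was above 4000 CPM in every library.

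Hsf3, a heat shock factor gene below the count filter, had 1, 10 and 7 counts in dKO cells. It had 0 in all 3 WT libraries, where 0 allows up to 3 counts each, and it was chosen after its values were seen. Hsf4, also below the filter, went the other way, with 8, 1 and 4 counts in dKO cells and 16, 20 and 9 in WT cells.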
